A study of Homo sapiens with 20 samples.

Results

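Keratins are the proteins of the intermediate filaments of epithelial cells, and 9 of them were followed here through the differentiation of HepaRG cells: KRT7, KRT8, KRT17, KRT18, KRT19, KRT20, KRT23, KRT80 and KRT81. They were chosen by name, and every array probe whose accession leads to one of these symbols was taken. This gave 12 probes of the 42405 on the array. Of these, 10 probes passed the filter on dim signals, which covers 8 of the 9 genes among 22224 genes tested. KRT20 did not pass.

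HepaRG is a human hepatoma line, derived from a hepatocellular carcinoma, whose progenitor cells can differentiate into hepatocyte-like and biliary-like cells. RNA from 20 cultures was hybridised to one-colour arrays, 4 independent experiments for each of 5 conditions. D4 is day 4 after seeding, when the cells are proliferating progenitors, and D15 is day 15, when they have become confluent and committed. D30 - DMSO was kept to day 30 in the same medium, D30 + DMSO received 2% dimethyl sulfoxide (DMSO) from day 15 to day 30, and D34 +/- DMSO had DMSO removed after day 30 for 4 more days. All cells were grown in William's E medium with serum, insulin and hydrocortisone, and all conditions come from this 1 line. The comparisons ask how keratin expression moved from progenitors to committed cells (D15 over D4), without DMSO (D30 - DMSO over D15), with DMSO (D30 + DMSO over D30 - DMSO, here called addition), and after it was withdrawn (D34 +/- DMSO over D30 + DMSO, here called removal). D34 +/- DMSO was also set against D30 - DMSO.

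Keratin filaments are built from pairs, in which an acidic type I chain binds a basic type II chain. KRT8 (type II) and KRT18 (type I) form the pair of simple epithelia and are the keratins of adult hepatocytes, where they protect the cell against mechanical and toxic stress. Cells of the bile ducts and hepatic progenitors add KRT7 (type II) and KRT19 (type I), so these serve as ductal markers in liver. KRT23 is a type I keratin, KRT80 a type II keratin, KRT81 a type II keratin of hair, KRT20 a type I keratin of intestinal epithelium, and KRT17 a type I keratin of basal and activated epithelium.

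Values are signals in intensity units after each array was scaled to the same 75th percentile, 563 units. Fold changes are differences of mean log2 signal with their standard error (SE), from a limma fit over all 20 arrays. A gene was called changed at an adjusted p below 0.005 (Benjamini-Hochberg over all genes tested) and a change of more than 2-fold. Before scaling, the 75th percentiles of the arrays were 407 to 766 units. They differed by condition, with 623 to 766 units at D4 and 453 to 518 at D30 + DMSO. On each array, 61.1% to 74.2% of probes were well above background, and arrays of one condition correlated at r = 0.955 to 0.992. The 20 arrays lay on 4 slides. Slide 4 was scanned in a second session and held replicate 4 of every condition and replicate 3 of D15 and D30 + DMSO. All D30 + DMSO arrays lay on slides 3 and 4. Levels of different probes cannot be compared with each other, so each gene is described across conditions. In bulk RNA, fewer cells of a type and less RNA per cell cannot be told apart.

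The hepatocyte keratins KRT8 and KRT18 were bright on every array, and neither was called in any of the 5 comparisons. KRT18 gave 51705, 49992, 50453 and 56320 units in the 4 D4 arrays, 42524, 50144, 78598 and 49681 at D15, and 56171, 46040, 50197 and 44873 at D30 - DMSO. With DMSO it gave 32806, 31482, 38342 and 25152 units, and after removal 48325, 44771, 55306 and 50905. The D30 + DMSO arrays were thus the lowest of all 20, below every array of the other conditions. The difference at addition was -0.64 ± 0.17 (SE) log2 units (adjusted p = 0.0108), which is 1.56-fold with a 95% interval of -0.99 to -0.29, and at removal 0.65 ± 0.17 (adjusted p = 0.00774, interval 0.30 to 1.00). Both fell short of 2-fold. On the 2 slides that held both conditions, the difference at addition was -0.81 and -0.53, and at removal 0.69 and 0.71. The second KRT18 probe differed by -0.63 at addition (adjusted p = 0.0324) and 0.59 at removal (adjusted p = 0.0381). Ordered by mean, the levels ran D15, D4, D34 +/- DMSO, D30 - DMSO and D30 + DMSO, and neighbours among the upper 4 did not differ beyond their spread (adjusted p of 0.83 or more).

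KRT8, its partner, was highest at D4. Its signal was 16348, 10870, 11837 and 20154 units at D4 and 6161, 7629, 11168 and 9844 at D15. It was 7940, 7785, 7338 and 11465 at D30 - DMSO, 6318, 6675, 8713 and 7578 at D30 + DMSO, and 8473, 7872, 10393 and 14021 at D34 +/- DMSO. The D4 and D15 ranges overlapped, and the difference was -0.76 ± 0.24 (adjusted p = 0.0244, not called). At addition KRT8 differed by -0.22 (adjusted p = 0.626, 95% interval -0.72 to 0.27) and at removal by 0.45 (adjusted p = 0.206), so the intervals do not exclude a change of the size seen for KRT18. The widest gap was between D4 and D30 + DMSO, -0.98 ± 0.24 (adjusted p = 0.00245, 1.98-fold), with no overlap. The second, much dimmer KRT8 probe differed by -0.73 at D15 over D4 (adjusted p = 0.147). KRT8 and KRT18 have many processed pseudogenes of near-identical sequence, so their probes may also read such copies.

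Of the ductal keratins, KRT19 had its highest signals at D4, and KRT7 was called in none of the 5 comparisons. KRT19 gave 149354, 82598, 100852 and 102472 units at D4 and 59489, 63327, 81700 and 60843 at D15. Its later values were 58942, 53356, 56952 and 60225 at D30 - DMSO, 51858, 44248, 63173 and 40309 at D30 + DMSO, and 63381, 46283, 71315 and 68017 at D34 +/- DMSO. Every D4 array lay above every other array. The difference from D4 was -0.69 ± 0.19 at D15 (adjusted p = 0.0102, not called) and -0.89 at D30 - DMSO (adjusted p = 0.00132, under 2-fold). At D30 + DMSO it was -1.11 (adjusted p = 8.85e-05), 2.16-fold lower, which met both thresholds. D4 against either D30 condition is outside the 5 comparisons, and the share of all genes called there was not taken. KRT17 (-4.73, adjusted p = 2.05e-08) and KRT80 (-3.43, adjusted p = 0.000113) were also called lower from D4 to D30 + DMSO. Neither was well above background on any D30 + DMSO array, so these sizes rest on signals under background. KRT19 differed by -0.22 at addition (adjusted p = 0.51, 95% interval -0.61 to 0.17) and by 0.32 at removal (adjusted p = 0.267), with overlapping ranges. Below D4, the order was D15, D34 +/- DMSO, D30 - DMSO and D30 + DMSO, and no neighbours there differed beyond their spread.

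KRT7 gave 13647, 11931, 15944 and 10707 units at D4 and 18540, 13964, 18336 and 13940 at D15. It gave 17958, 19402, 16786 and 16137 at D30 - DMSO, 21192, 18755, 20402 and 16267 at D30 + DMSO, and 16912, 12799, 20900 and 12321 at D34 +/- DMSO. The ranges of consecutive conditions overlapped. From D4 to D30 + DMSO, outside the 5 comparisons, KRT7 was higher by 0.56 without overlap (adjusted p = 0.0152, not called). Differences were 0.31 at D15 over D4 (adjusted p = 0.238), 0.12 at addition (adjusted p = 0.752, 95% interval -0.25 to 0.49) and -0.31 at removal (adjusted p = 0.248). Before scaling, KRT7 varied less across the 20 arrays than after it, with a coefficient of variation of 12% against 19.2%, and its scaled log2 level correlated with the log2 75th percentile of the array at r = -0.784 (20 arrays, a description only). KRT81 showed the same, 12.6% against 18.8% and r = -0.755. For the other tested keratins, r with the log2 75th percentile was 0.655 (KRT17), 0.638 (KRT80), 0.541 (KRT19), 0.506 (KRT8), 0.325 (KRT18) and -0.143 (KRT23). The part of the scaling in the small differences of KRT7 and KRT81, or in those of the other keratins, was not tested.

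**Figure D1:**
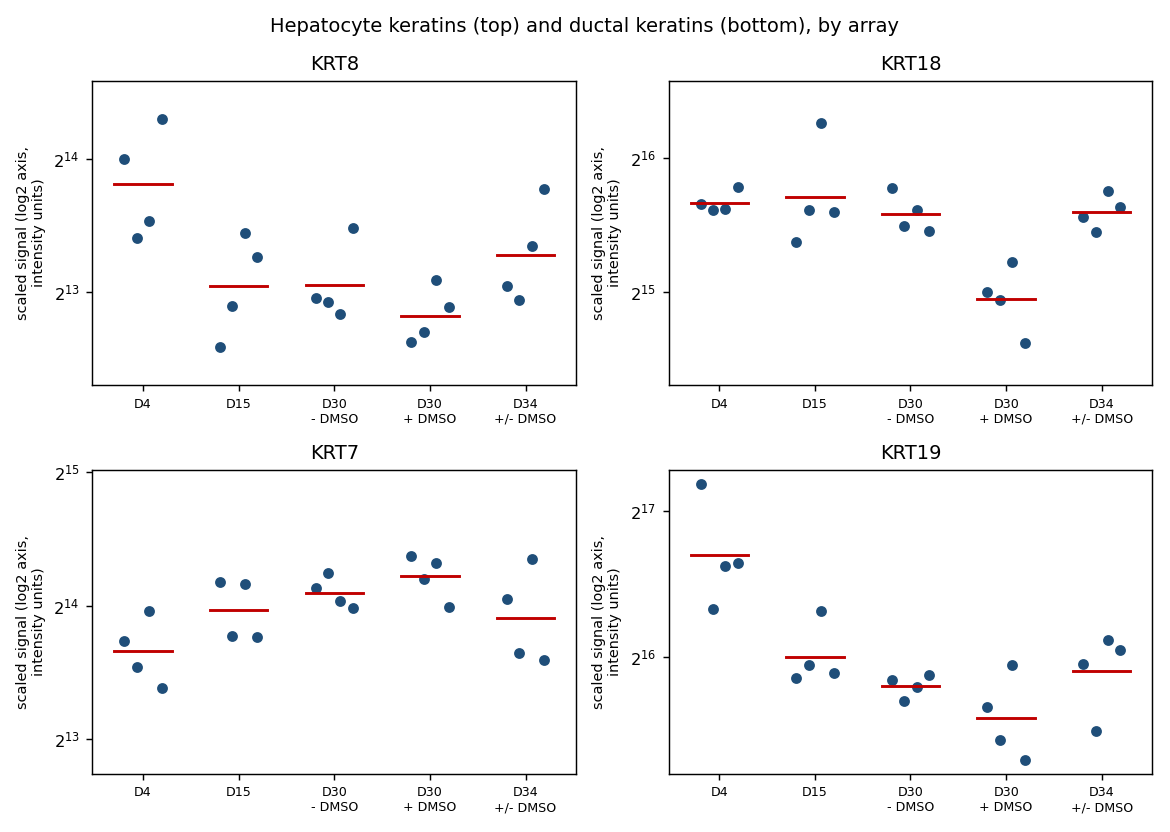
Scaled signal (intensity units, log2 axis) of KRT8, KRT18, KRT7 and KRT19 in each of the 20 arrays, by condition. Points are arrays and red bars are geometric means of 4 arrays. KRT18 is lowest in the 4 D30 + DMSO arrays (25152 to 38342 units), and KRT19 is highest in the 4 D4 arrays (82598 to 149354 units).

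The balance of ductal to hepatocyte keratins was taken on each array as the mean log2 signal of KRT7 and KRT19 minus that of KRT8 and KRT18, and is given relative to the mean of the D4 arrays. It was 0.17 ± 0.30 (SD, n = 4) at D15, 0.20 ± 0.13 at D30 - DMSO, 0.58 ± 0.13 at D30 + DMSO and 0.03 ± 0.28 at D34 +/- DMSO, and the D4 arrays had an SD of 0.33. The 4 D30 + DMSO arrays stood at 0.77, 0.55, 0.54 and 0.45, above the D30 - DMSO arrays at 0.19, 0.33, 0.25 and 0.02 and the D34 +/- DMSO arrays at 0.26, -0.06, 0.25 and -0.32. Within slides the difference at addition was 0.47 on both slides that held the pair, and at removal -0.41 and -0.82. At addition KRT7 differed by 0.12, KRT19 by -0.22, KRT8 by -0.22 and KRT18 by -0.64. The higher balance with DMSO thus came mostly from lower KRT18, and the ductal keratins did not rise together. At removal the differences were -0.31, 0.32, 0.45 and 0.65 in the same order. No test was made on this score, because its genes were chosen with results known.

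The pairs within the balance moved differently. KRT7 over KRT8 stood at 1.07 ± 0.47 (SD, n = 4) at D15, 1.20 ± 0.37 at D30 - DMSO, 1.54 ± 0.29 at D30 + DMSO and 0.78 ± 0.56 at D34 +/- DMSO, all relative to D4. KRT19 over KRT18 stood at -0.74 ± 0.18, -0.81 ± 0.15, -0.39 ± 0.10 and -0.72 ± 0.17 in the same order. The ductal keratin of one pair was therefore higher relative to its hepatocyte keratin after D4 and that of the other pair was lower, and in the mean over both pairs these opposite shifts largely cancel from D4 to D15.

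**Figure D2:**
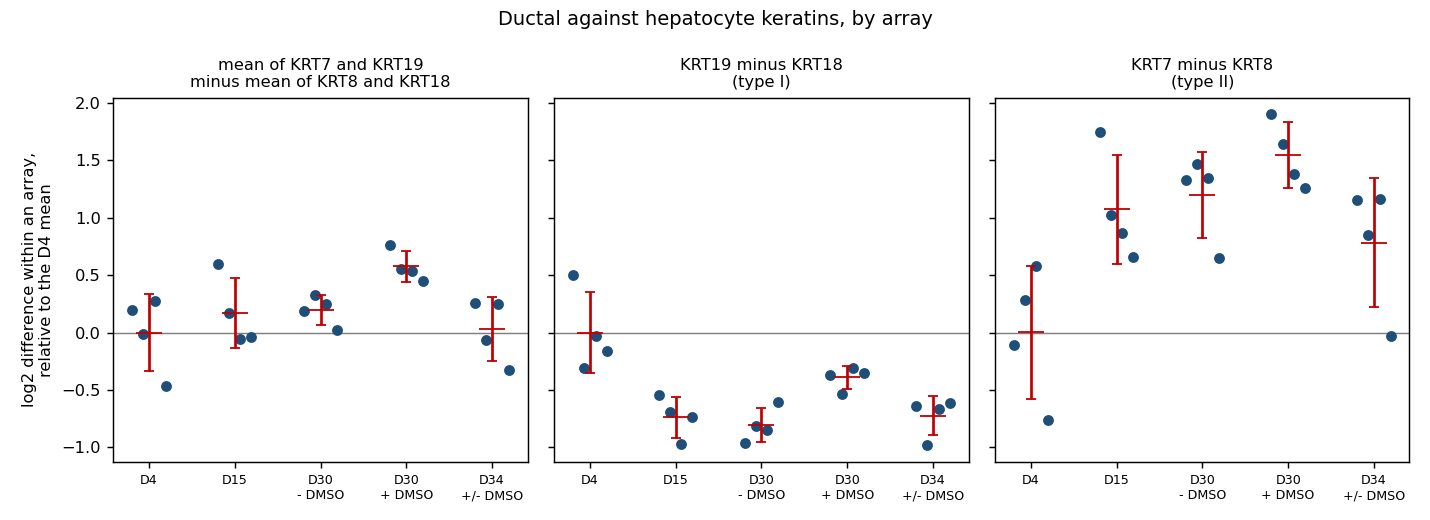
Log2 difference of ductal and hepatocyte keratins on each array relative to the D4 mean (y axis, log2 units), for the mean of KRT7 and KRT19 over KRT8 and KRT18, for KRT19 over KRT18 and for KRT7 over KRT8. Points are arrays, with the mean ± SD of 4. In the mean over both pairs, D30 + DMSO (0.58 ± 0.13) lies above D30 - DMSO (0.20 ± 0.13) and D34 +/- DMSO (0.03 ± 0.28).

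In the 5 comparisons, the calls among the 8 tested keratins were those of KRT17, KRT23 and KRT80. All 3 were dim, with scaled signals of at most 116 units, well under the 75th percentile of 563. Where no array of a condition was well above background, the fold change is given as an approximate lower bound. In place of each signal under background, the bound takes the dimmest signal above background on that array, 1.12 to 10.3 units over the 20 arrays, or the probe's own where that was higher. That dimmest signal may come from any probe and is not the detection limit of the keratin's own probe. KRT17 at 20.02 units on D15 replicate 1 was still not above background. Folds given as "at least" therefore hold only under this substitution, and the true fold can be smaller.

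KRT23 was not well above background at D4 (1, 4.66, 5.56 and 5.42 units) and was so on every array at D15 (45.2, 44.6, 33.7 and 49.8) and at D30 - DMSO (116, 59.1, 75.9 and 39.7). With DMSO it was again not above background on any array (8.34, 7.20, 1.90 and 1 units). After removal, 3 of 4 arrays were above background (54.2, 11.6, 17.5 and 52.3, of which 11.6 was not). KRT23 was at least 6.93-fold higher at D15 than at D4 (fitted 3.64 ± 0.68 log2 units, adjusted p = 0.000488), at least 8.1-fold lower with DMSO than without (-4.37 ± 0.68, adjusted p = 0.000132) and at least 3.31-fold higher after removal (3.07 ± 0.68, adjusted p = 0.00259). Its highest mean was at D30 - DMSO, followed by D15 and D34 +/- DMSO, and D4 and D30 + DMSO, both under background on all arrays, have no order. Within slides the difference was -3.91 and -4.85 for addition, 1.99 and 5.25 for removal, and 5.50, 3.00 and 2.92 for D15 over D4. These sizes rest on signals under background, 2 of them at the floor of 1 unit, so only the sign can be read from them. The call at removal was lost without D30 + DMSO replicate 3 (2.81, adjusted p = 0.0123) or 4 (2.50, adjusted p = 0.0112), without D34 +/- DMSO replicate 1 (2.75, adjusted p = 0.0117) or 4 (2.77, adjusted p = 0.0114), and without the second scan session (1.52, adjusted p = 0.203). The latter also ended the call at addition (-3.38, adjusted p = 0.0102). The other KRT23 probe was above background on 1 array only, of D30 - DMSO, and was not tested.

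KRT17 gave 89.8, 46.6, 48.7 and 83.5 units at D4, 20.02, 16.6, 24.6 and 22.2 at D15 (20.02 not above background) and 10.6, 15.6, 13.4 and 20.2 at D30 - DMSO. With DMSO no array was above background (4.40, 3.98, 1.94 and 1 units), and after removal all 4 were (17.7, 21.0, 16.7 and 41.8). Every D30 + DMSO array was below every other array. KRT17 was at least 2.05-fold lower with DMSO than without (fitted -2.59 ± 0.40, adjusted p = 0.000128) and at least 3.19-fold higher after removal (3.22 ± 0.40, adjusted p = 9.56e-06), with within-slide differences of -1.34 and -3.86, and of 2.04 and 4.91, whose sizes again rest on signals under background. From D4 to D15 the difference was -1.64 ± 0.40, 3.11-fold with no overlap, at an adjusted p of 0.00501 that narrowly missed the threshold. From D4 to D30 - DMSO, outside the 5 comparisons, KRT17 was called lower (-2.14, adjusted p = 0.00045), with every array of both conditions above background. KRT17 shares near-identical sequence with pseudogenes and with KRT16, so its probe may read more than 1 gene.

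KRT80 gave 48.9, 29.6, 30.6 and 72.7 units at D4 and was not above background on any D15 array (1.13, 5.20, 7.98 and 13.5). It was above background on 1 array of D30 - DMSO (13.1, against 10.4, 8.91 and 9.58 on the others), on none of D30 + DMSO (4.71, 7.35, 4.92 and 1.40) and on all 4 of D34 +/- DMSO (16.0, 18.7, 12.4 and 25.8). KRT80 was at least 5.77-fold lower at D15 than at D4 (fitted -3.08 ± 0.59, adjusted p = 0.000646). The within-slide differences of -5.44, -2.56 and -2.81 rest on signals under background too. At removal it was at least 2.29-fold higher without overlap, but not called (2.16 ± 0.59, adjusted p = 0.0121), and at addition it differed by -1.40 (adjusted p = 0.117).

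These calls on dim probes depend on how background is treated. With normexp background correction and an offset of 50 units, which draws dim signals together, none of them passed both thresholds: KRT23 differed by 0.83 at D15 over D4, -0.82 at addition and 0.32 at removal, KRT17 by -0.15 at addition and 0.32 at removal, and KRT80 by -0.58 at D15 over D4. A floor of 10 units ended KRT17's call at addition (-0.54) and KRT23's at removal (1.46). Both differences are smaller than the bounds given above, which are therefore not strict.

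KRT81, a bright probe, lay between 19372 and 39580 units on all arrays and was called in no comparison (0.32 at D15 over D4, adjusted p = 0.225; 0.20 at addition, adjusted p = 0.529; -0.26 at removal, adjusted p = 0.344). Its log2 level followed that of KRT7 over the 20 arrays (r = 0.954, a description, since the arrays share conditions and scaling). KRT81 shares near-identical sequence with other hair keratins. KRT20 reached at most 18.8 units and was above background on 1 D4 array and 1 D15 array, and not on the other arrays.

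**Figure D3:**
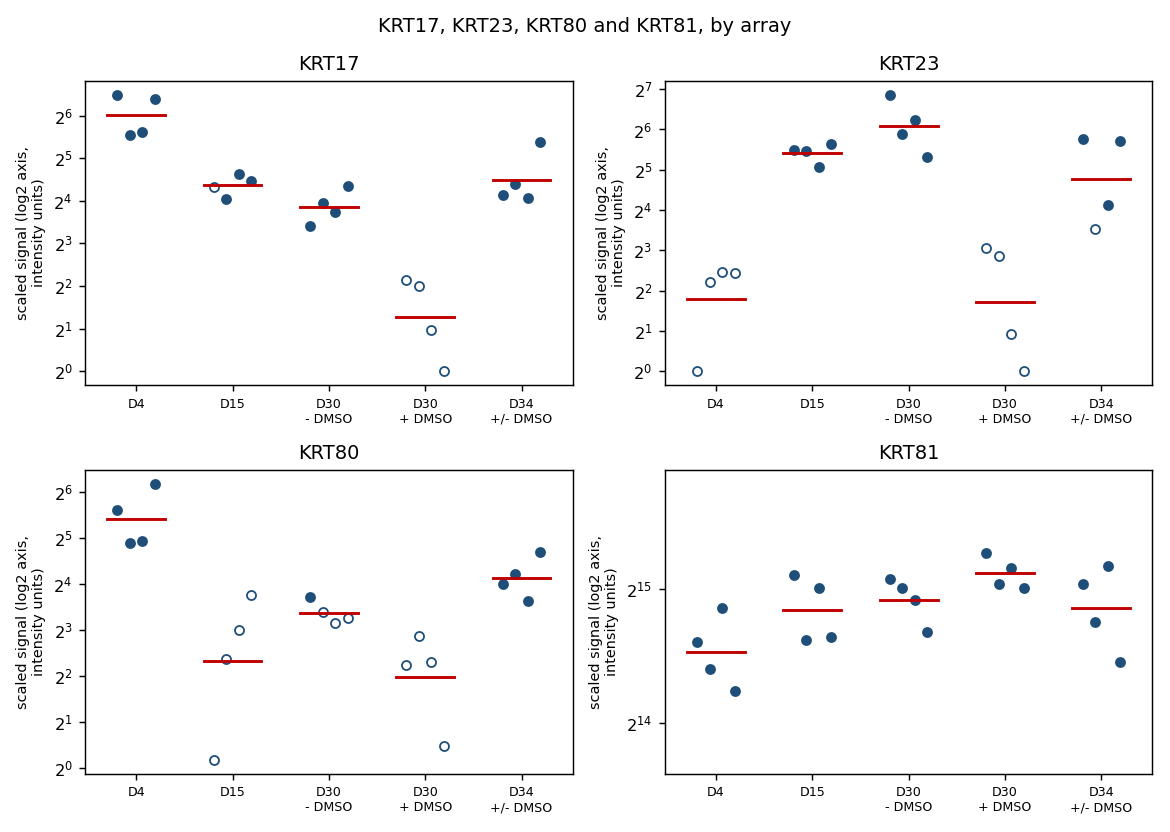
Scaled signal (intensity units, log2 axis) of KRT17, KRT23, KRT80 and KRT81 in each of the 20 arrays, by condition. Filled points are well above background, open points are not, and red bars are geometric means. KRT17 and KRT23 have 4 open points at D30 + DMSO, at 8.34 units or less.

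Counted together, 2 of the 8 tested keratins were called from D4 to D15 (KRT23 higher, KRT80 lower), against 9.49% of all genes, 5.79% called higher and 3.69% called lower. KRT23 was higher without overlap between the groups, as 12.7% of all genes were, and KRT17, KRT19 and KRT80 were lower without overlap, as 11.4% were. At addition 2 of 8 were called, both lower (KRT17 and KRT23), against 5.91% of all genes and 4.18% called lower. At removal 2 of 8 were called, both higher (KRT17 and KRT23), against 7.06% of all genes and 4.95% called higher. Addition and removal share the D30 + DMSO arrays, so these 2 results are not independent. The groups did not overlap for 4 of 8 at addition, all lower (KRT17, KRT18, KRT23 and KRT80), where 12.5% of all genes were lower without overlap, and for the same 4 at removal, all higher, where it was 11.2%. The median difference over the 8 was -0.32 from D4 to D15 (0.04 over all genes), -0.43 at addition (0.04) and 0.55 at removal (-0.07). With keratins under background in a whole condition set at their bound, the median at addition was -0.33, and the other 2 medians were as before. A keratin that passed the filter only through its brighter conditions had to differ, so these counts are a description.

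None of the 8 was called by limma between D15 and D30 - DMSO, where 0.0045% of all genes were, or between D34 +/- DMSO and D30 - DMSO, where 1.52% were. At an unadjusted p below 0.05, limma gave 0 of 8 in both. limma's F-test over the 5 conditions asked for a Bonferroni-adjusted p below 0.001 and a gap over 3-fold from the top to the bottom condition, which 5.37% of all genes met. KRT17 met it (adjusted p = 0.000438, at least 9.08-fold from D4 to D30 + DMSO) and KRT23 did not (adjusted p = 0.0757, at least 8.1-fold from D30 - DMSO to D30 + DMSO). KRT17's F-test call was lost when any 1 of 13 arrays was left out: each of the D4 and D15 arrays, D30 - DMSO replicates 2 and 3, D30 + DMSO replicate 3, and D34 +/- DMSO replicates 1 and 2.

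**Figure D4:**
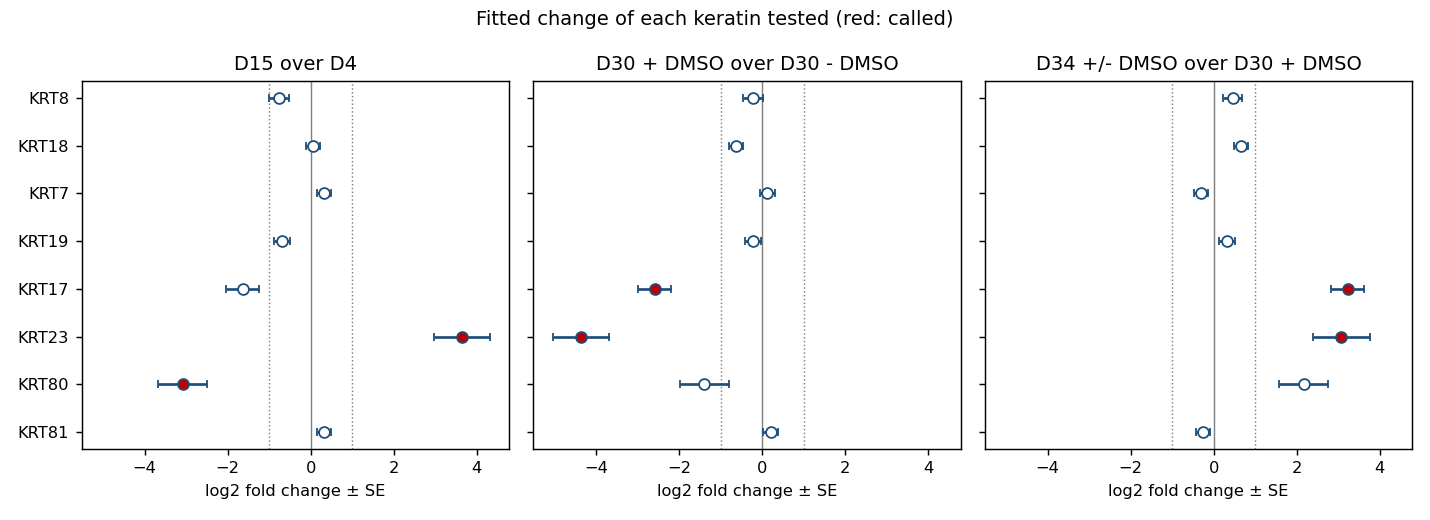
Fitted log2 differences (± SE) of the 8 tested keratins for D15 over D4, addition and removal. Red marks a called change and dotted lines mark 2-fold. KRT23 is called in all 3 comparisons, KRT17 at addition and removal, and KRT80 from D4 to D15.

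The array also measured 44 other keratins, of which 20 passed the filter. From D4 to D15, 3 of the 20 were called (9.49% of all genes were). KRT222 was higher (1.05, adjusted p = 0.00184), while KRT4 (-1.39, adjusted p = 2.11e-05) and KRT33A (-1.004, adjusted p = 0.00233) were lower. The calls of KRT222 and KRT33A lie at the 2-fold limit, and leaving out 1 array ended them for 5 and 6 of the 8 arrays compared. At addition 6 of the 20 were called and all were lower, where 4.18% of all genes were called lower. They were KRT4, KRT5, KRT6A, KRT6B, KRT6C and KRT16. With only probes above background on all 20 arrays, 2 were called at addition. A keratin that passed the filter only through its brighter conditions had to differ, so the counts among the 20 are a description too. KRT5 is the type II keratin of basal cells, KRT4 that of mucosal suprabasal cells, and the KRT6 genes and KRT16 are induced in activated epidermis. The median over the 20 was -0.11, and the others were not called. Among these were further keratins of stratified epithelia, namely KRT10 of suprabasal epidermis (-0.07, adjusted p = 0.899), KRT15 of basal cells (0.31, adjusted p = 0.578), KRT13, the partner of KRT4 (0.20, adjusted p = 0.848), and KRT3 of corneal epithelium (0.33, adjusted p = 0.466). KRT13 was above background on 2 arrays of D30 - DMSO and 2 of D30 + DMSO, so a decrease of it could hardly have been seen.

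KRT4 gave 599, 601, 607 and 622 units at D30 - DMSO, 86.1, 66.8, 94.5 and 63.5 at D30 + DMSO, and 282, 160, 214 and 339 at D34 +/- DMSO. The 3 groups did not overlap, and KRT4 was lower at addition (-2.99 ± 0.19, adjusted p = 1.34e-08) and higher at removal (1.64 ± 0.19, adjusted p = 4.86e-06). After removal it remained below D30 - DMSO (-1.34, adjusted p = 0.000176), the only call of the 20 there, where 0.211% of all genes were called lower. Within slides it differed by -2.98 and -3.01 at addition. KRT6A gave 882, 936, 857 and 1043 units at D30 - DMSO, 30.2, 27.0, 18.9 and 15.0 at D30 + DMSO (the last not above background), and 461, 254, 253 and 1030 at D34 +/- DMSO. It was lower at addition (-5.40 ± 0.46, adjusted p = 2.05e-07) and higher at removal (4.25 ± 0.46, adjusted p = 2.04e-06). KRT4 and KRT6A were also called by the F-test. The calls of KRT4 from D4 to D15 and at addition passed in every alternative run, normexp correction included. That of KRT6A at addition passed in every run that tested it, normexp correction included. Its probe left the test where only probes above background on all 20 arrays were kept.

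KRT5 was lower at addition (-3.08 ± 0.44, adjusted p = 5.96e-05), from 225, 173, 170 and 477 units to 28.3, 22.0, 22.2 and 44.5, and at removal its difference of 1.82 missed the threshold (adjusted p = 0.00526). KRT6C was at least 13.4-fold lower at addition (adjusted p = 9.82e-05) and at least 5.44-fold higher at removal (adjusted p = 0.00146). KRT16 was lower at addition (-1.66, adjusted p = 0.00105) and higher at removal (1.56, adjusted p = 0.00143), and KRT6B was lower at addition (-2.56, adjusted p = 0.000162) with 0.62 at removal (adjusted p = 0.335). KRT6B and KRT16 each had 1 D30 + DMSO array above background, so the sizes of their differences rest on signals under background. Without the second scan session the addition call of KRT16 was lost (-0.94, adjusted p = 0.0523). KRT6A, KRT6B and KRT6C are near-identical in sequence, so their probes may read each other's RNA and the 3 are not independent. At removal 4 of the 20 were called, all higher, where 4.95% of all genes were called higher: KRT4, KRT6A, KRT6C and KRT16. The call of KRT6C at removal was lost without D30 + DMSO replicate 4 (2.91, adjusted p = 0.00602) or D34 +/- DMSO replicate 4 (3.00, adjusted p = 0.0068). That of KRT16 at removal was lost without D30 + DMSO replicate 1 (1.51, adjusted p = 0.00525) or 4 (1.25, adjusted p = 0.00526), or D34 +/- DMSO replicate 4 (1.44, adjusted p = 0.00646).

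**Figure D5:**
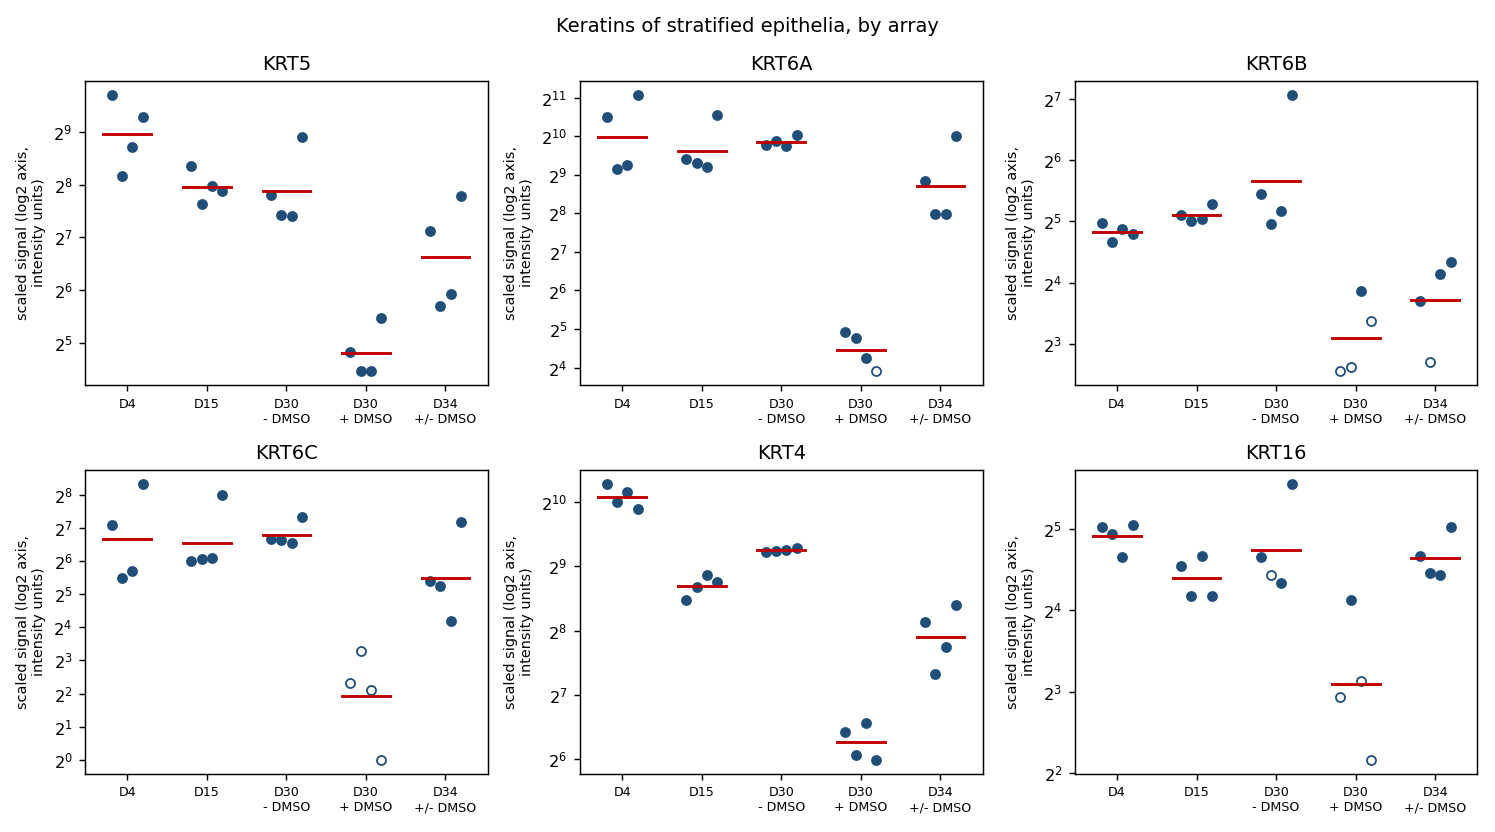
Scaled signal (intensity units, log2 axis) of stratified-epithelium keratins in each of the 20 arrays, by condition, with filled points well above background and red bars at the geometric mean. KRT4 and KRT6A are lowest in the D30 + DMSO arrays (63.5 to 94.5 and 15.0 to 30.2 units).

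The promoters of 2 keratins called lower with DMSO, KRT4 and KRT5, are shown beside that of KRT8, a hepatocyte keratin with no call, to show what these starts look like. RefSeq's table (GRCh38.p14) held a promoter for 2 of the 9 keratins followed, KRT8 and KRT20. Promoters were taken by gene symbol and were not matched to the transcript that a probe reads. A start shown may therefore not be that of the RNA measured. Each sequence runs 5′ to 3′ on the minus strand over 250 bases before and 50 after the start, at chr12:52926420-52926719 for KRT8, chr12:52814067-52814366 for KRT4 and chr12:52520345-52520644 for KRT5, and capitals mark a match to a searched motif.
KRT8: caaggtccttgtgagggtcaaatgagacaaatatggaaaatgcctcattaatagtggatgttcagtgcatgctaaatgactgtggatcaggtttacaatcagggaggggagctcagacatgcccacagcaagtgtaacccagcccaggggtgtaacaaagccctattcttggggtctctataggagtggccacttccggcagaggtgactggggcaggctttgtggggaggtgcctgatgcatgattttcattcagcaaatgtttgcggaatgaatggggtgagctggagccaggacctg
KRT4: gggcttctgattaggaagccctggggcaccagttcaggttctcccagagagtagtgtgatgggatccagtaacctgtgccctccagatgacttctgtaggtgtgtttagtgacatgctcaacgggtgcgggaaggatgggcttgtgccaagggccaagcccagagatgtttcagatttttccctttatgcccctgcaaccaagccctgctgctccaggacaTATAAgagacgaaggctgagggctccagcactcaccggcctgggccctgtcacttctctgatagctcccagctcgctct
KRT5: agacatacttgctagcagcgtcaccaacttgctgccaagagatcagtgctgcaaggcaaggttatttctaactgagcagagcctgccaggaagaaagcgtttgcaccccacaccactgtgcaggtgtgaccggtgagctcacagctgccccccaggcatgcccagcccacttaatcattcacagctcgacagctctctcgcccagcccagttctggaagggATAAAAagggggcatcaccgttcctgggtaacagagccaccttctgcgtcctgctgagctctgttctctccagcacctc
Both strands were searched for TATAA and also for ATAAAA, forms of the TATA box that can overlap each other. The AP-1 form TGANTCA and the SP1 form GGGCGG were searched as well. TATAA stood 29 bases before the start of KRT4 and ATAAAA 29 bases before that of KRT5, and the window shown for KRT8 held none of the 4. Of 35116 promoters, 20.4% held TATAA, 16% ATAAAA, 7.71% TGANTCA and 45% GGGCGG. A match is a description of these letters.

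Of 24 tested partners of intermediate filaments, 6 were called from D4 to D15, 2 higher and 4 lower, where 9.49% of all genes were called. Those with the largest change were PKP3 (-3.31), a desmosome plaque protein, LMNB1 (-2.72) and LMNB2 (-1.24), nuclear lamins, and JUP (1.42), which links keratin filaments to desmosomes. At addition (5.91% of all genes called) DSC2, a desmosomal cadherin, was the 1 called (-1.001), and at removal (7.06%) LMNB1 (2.93), LMNB2 (1.99) and DSC2 (1.19) were higher. At an unadjusted p below 0.05, limma gave 14 of 24 from D4 to D15, 7 at addition and 12 at removal. The share of all genes at that p was not taken, here or for the other counts at an unadjusted p. Such counts are a description and cannot be read against the shares called. The medians were -0.20, -0.09 and 0.15. Of 15 tested genes of simple epithelial junctions, 6 were called higher from D4 to D15 (5.79% of all genes), among them CLDN3 (2.25), OCLN (2.07), CDH1 (2.03) and CLDN7 (1.44), with a median of 0.96. At addition 2 of the 15 were called, CLDN3 higher (1.40) and CLDN2 lower (-1.41).

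Of 17 tested genes of stratified and squamous epithelium, which hold no keratin, 6 were called lower at addition (4.18% of all genes), among them S100A2 (-2.85), S100A14 (-2.38), S100A9 (-2.31) and SFN (-1.96), with a median of -0.44. At removal 5 were called higher (4.95% of all genes), among them S100A2 (3.88), SFN (2.96), S100A14 (2.79) and S100A9 (1.86), with a median of 0.34. From D4 to D15, 2 were called higher (5.79% of all genes) and 3 lower (3.69% of all genes). TP63 and DSG3, defining genes of stratified epithelium, were above background on 2 arrays at most, and IVL on 1.

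Markers of cell types moved with these comparisons, and their part in the keratin results was not tested. All 8 hepatocyte markers were called higher from D4 to D15 (median 3.57), where 5.79% of all genes were. Their summed signal was 84663 to 175771 units at D4 and 742945 to 1080590 at D15. At addition limma called 0 of 8 (median 0.50), against 5.91% of all genes, with 4 at an unadjusted p below 0.05. All 10 proliferation genes were called lower from D4 to D15 (median -2.93, 3.69% of all genes) and higher at removal (median 2.90, 4.95% of all genes). Their summed signal was 2562 to 4595 units at D30 + DMSO and 14078 to 27207 at D34 +/- DMSO. Of 5 tested biliary or progenitor markers, SPP1 was lower at addition (-1.78) and higher at removal (2.22), and SOX9 was higher at addition (1.31) and lower at removal (-2.09). Over all genes, 5.91% were called at addition and 7.06% at removal. EPCAM and CFTR, 2 defining ductal or progenitor markers, were above background on no array. Of 5 tested mesenchymal markers, TAGLN (-2.22) and COL1A1 (-1.91) were lower from D4 to D15, where 3.69% of all genes were called lower. limma called none at addition (median -0.57, 2 of 5 at an unadjusted p below 0.05) or at removal (median 0.99, 3 of 5 at an unadjusted p below 0.05). At removal 3 of 5 mesenchymal markers were higher without overlap, as 11.2% of all genes were. The summed signal of the mesenchymal markers was 1489 to 2628 units at D30 - DMSO, 974 to 1695 at D30 + DMSO and 1967 to 3346 at D34 +/- DMSO. COL1A2 and PDGFRB were above background on no array. CD68, of 2 tested leukocyte markers, was higher from D4 to D15 (1.41, with 5.79% of all genes called higher).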

How the data were processed

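The authors deposited the Agilent Feature Extraction output of each array, whose processed signal is a background-subtracted intensity that is not scaled between arrays. Their files give software version 10.7.1.1 and the submitters' processing notes 10.7.3.1. The authors also deposited log2 values relative to a baseline, which matched the scaled processed signal apart from 1 baseline per probe and a shift of each array of at most 0.102 (21744 probes compared, median absolute difference 3.07e-07).

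Repeat spots were averaged, and signals were divided by the 75th percentile of their array, floored at 1 unit and put on the log2 scale. A probe entered the tests (26541 of 42405 did) where some condition had it well above background on each of its 4 arrays. Where a gene had several such probes, its brightest on average was taken. RefSeq accessions named 24826 probes. One model with 5 condition means was fitted over all genes in R 4.3.3 with limma 3.58.1 (and the data.table package, version 1.17.8), at the thresholds of the study's methods and with limma in place of their t-test. P-values measure the spread between the labelled independent experiments, and 4 arrays per condition limit the precision. The fitting was tested on simulated data.

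The 9 keratins, the gene lists and the tests were chosen with earlier results of these data known. Genes named are the 9 keratins, other keratins called in a comparison or by the F-test, up to 4 called genes of each list with the largest change, and the 3 genes most like a keratin. KRT3, KRT10, KRT13, KRT15 and the defining markers below background were named outside this rule, after their values were seen. Leaving out the second scan session, taking no value at the floor as an above-background signal in a bound, and all alternatives for the other keratins were chosen after seeing the data. Alternatives covered normalization, background correction, filters, floors, slide, session and replicate blocks, the t-test of the methods, a test of every probe and leaving out each array.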

Additional observations from a re-analysis of the deposited data

Results flagged for a closer look

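KRT23 in D4 replicate 1 stood apart from the other 3 D4 arrays on the log2 scale. Its signal was at the floor of 1 unit against 4.66 for the nearest array. On log2 values this gap was 0.897 of the range of the group, above Dixon's limit for 4 arrays. The unscaled signal was -3.05, so the floor sets the size of the gap. No D4 array was well above background for KRT23. Of 40 combinations of keratin and condition examined this was the 1 that passed, and chance gives about 1 in 20.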

How the results depend on the processing

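In the 5 comparisons, the calls of the keratins followed rest on dim probes. With the fit as reported, 2 of 8 were called from D4 to D15, 2 at addition, 2 at removal and 1 by the F-test. Under normexp correction, and with only probes above background on all 20 arrays, these were 0, 0, 0 and 0, the latter because KRT17, KRT23 and KRT80 then leave the test. Quantile normalization and no filter on dim probes each gave 1 at removal and 0 by the F-test. A floor of 10 units gave 1 at addition, 1 at removal and 0 by the F-test, as did leaving out the second scan session. Only the arrays compared gave 1 at addition and 1 at removal, the methods' t-test gave 0, 0 and 0 after Benjamini-Hochberg adjustment (5, 4 and 4 at an unadjusted p below 0.05, and 0 from D15 to D30 - DMSO and 1 for D34 +/- DMSO over D30 - DMSO), and the slide block gave 0 by the F-test. Leaving out 1 array gave 2 to 2 from D4 to D15, 2 to 2 at addition, 1 to 2 at removal and 0 to 1 by the F-test. KRT17 from D4 to D15 passed with the authors' values, the floor of 10, the session block, only the arrays compared, an adjusted p below 0.05 and without the second session. It also passed where every probe was tested (-1.64, adjusted p = 0.00499), beside KRT23 and KRT80.

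For the 20 other keratins (3 from D4 to D15, 6 at addition, 4 at removal, 1 for D34 +/- DMSO over D30 - DMSO), normexp gave 1, 3 and 2 for the former 3, and probes above background on all arrays gave 2 at addition and 2 at removal. The last comparison gave 2 under the floor of 10, the slide block, the session block and an adjusted p below 0.05. Only the arrays compared gave 1 from D4 to D15, 2 at removal and 0 in the last comparison, the t-test 1, 2, 0 and 0, and leaving out the second session 2 at removal. Leaving out 1 array gave 1 to 3, 6 to 6, 2 to 5 and 1 to 1.

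Some differences changed sign, none of them called. KRT18 from D4 to D15 was -0.025 under quantile normalization, -0.022 under normexp, -0.135 without the second session and -0.138 (without D15 replicate 3) to 0.158 when 1 array was left out. KRT18 for D34 +/- DMSO over D30 - DMSO was -0.039 under quantile normalization and without the second session, -0.037 with the slide block, and -0.035 to 0.081 when 1 array was left out. From D15 to D30 - DMSO, KRT18 was 0.133 without the second session and -0.241 to 0.054 (without D15 replicate 3) when 1 array was left out, KRT8 was -0.018 under normexp and -0.151 to 0.135 when 1 array was left out, and KRT80 was -0.0003 under normexp (1.05 as reported). KRT80 at addition was 0.061 under normexp (-1.40 as reported), and KRT81 for D34 +/- DMSO over D30 - DMSO was -0.17 to 0.069 (without D34 +/- DMSO replicate 4) when 1 array was left out. The cause was not tested. All 75 alternatives of the balance of ductal to hepatocyte keratins stayed within the replicate SD, but some of them could not move it. Its probes were bright on every array, so the changed filters on dim probes and the higher floor left them as they were. A shift of a whole array cancels in the balance, as does a baseline per probe between conditions, so the authors' values could not move it either. Those settings do not test the balance. Leaving out 1 array gave 0.32 to 0.42 at addition, -0.62 to -0.43 at removal, 0.01 to 0.26 from D4 to D15, -0.24 to -0.05 for D34 +/- DMSO over D30 - DMSO, and -0.05 to 0.17 from D15 to D30 - DMSO, where the sign changed, as it did without the second scan session (-0.128).

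The replicate numbers were not taken to pair the arrays, since not every pair correlated. Same-numbered arrays deviated together with a median r of 0.274 (-0.327 to 0.801), 27 of 40 pairs over 0.1, and 10 of 20 arrays correlated best with their own number. On the same slide the median r was 0.581 for the same number (18 of 18 over 0.1) and 0.303 for different numbers, and across slides 0.066 (9 of 22 over 0.1) and -0.228. The replicate block gave 0 keratins by the F-test and 2 other keratins for D34 +/- DMSO over D30 - DMSO, and changed no other count by over 1.5 times.

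Over all genes, 2108 were called from D4 to D15, 1314 at addition, 1568 at removal and 338 for D34 +/- DMSO over D30 - DMSO. These became 1401, 668, 862 and 258 under normexp and 1105, 581, 490 and 41 under the t-test, and with only the arrays compared removal gave 1077 and the last comparison 171. Signals under background on a whole condition limit the folds of KRT17, KRT23, KRT80 and KRT6C to approximate bounds.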

Other observations

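Genes whose log2 signal followed a keratin most closely over the 20 arrays are given as a description, since arrays share conditions and scaling. For KRT7 these were a long intergenic RNA probe (r = 0.962), TNRC18 (0.955) and CHST6, a carbohydrate sulfotransferase (0.95). For KRT8 they were 2 probes without a symbol (0.977 and 0.959) and ANAPC15, a subunit of the anaphase-promoting complex (0.951). KRT19 was followed by a probe without a symbol (0.935), DRAP1, a transcriptional corepressor (0.932), and DCPS, an mRNA decapping enzyme (0.923). KRT23 was followed by PZP, a protease inhibitor of the alpha-2-macroglobulin family (0.942), and 2 probes without a symbol (0.933 and 0.929). The 3 nearest to KRT18 had no symbol (0.944, 0.937 and 0.936). Among the keratins, KRT8 correlated with KRT19 at r = 0.804 and with its partner KRT18 at 0.523, and KRT7 with KRT19 at -0.393.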
